A study of Mus musculus with 6 samples.

Results

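The genes described here are 32 mouse genes that respond to low oxygen and lie outside glycolysis. They were chosen by name, as the rows of the count files whose Entrez identifier belongs to one of the listed symbols, and they make up 32 of the 27179 gene identifiers counted. RNA-seq was performed on A20, a B cell lymphoma line from BALB/C mice, in 3 groups of 2 biological replicates each. The groups were wild-type A20 that had not been transduced (WT), and A20 carrying the lentiviral TETact-v3 system with either a non-targeting control sgRNA or an sgRNA against the Cd4 promoter. In TETact-v3 a catalytically inactive Cas9 recruits the TET1 catalytic domain, which oxidises methylated cytosine, through SunTag epitopes, while MS2 aptamers in the sgRNA bring in the p65-hsf1 activator. All libraries thus came from a single tumour line, both TETact groups carried the whole system, and no group of cells kept at low oxygen was among them. The TETact cells were sorted and carried vectors, unlike WT, and the parts of sorting and vectors cannot be told apart.

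Cells sense oxygen through prolyl hydroxylases that mark HIF-alpha subunits for degradation by the VHL ubiquitin ligase. When oxygen is short, HIF-alpha accumulates, pairs with ARNT and binds short sites with a CGTG core near its target genes. Besides glycolytic enzymes, these targets serve mitophagy (Bnip3, Bnip3l), blood vessel growth (Vegfa, Adm), pH control (carbonic anhydrases), collagen maturation (prolyl and lysyl hydroxylases), histone demethylation (Kdm3a, Kdm4b), restraint of growth (Ddit4, Mxi1, Ccng2) and lipid storage (Hilpda, Plin2). Several of them also respond to other signals, such as stress of the endoplasmic reticulum or nutrient shortage.

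The deposited counts summed to between 23194920 and 49778949 per library in WT, 35316997 and 48466039 in Cd4 sgRNA cells, and 121623410 and 92285875 in control sgRNA cells. Cd4 itself had 37 and 17 counts in WT, 127 and 124 in control sgRNA cells, and 30959 and 40422 in Cd4 sgRNA cells, as the labels state. All 8 B cell markers examined were detected in each library, with summed levels of 2167 to 2168 CPM (library-scaled counts) in WT and 1321 to 1585 CPM in the TETact groups. Markers of T cells, myeloid cells, fibroblasts and endothelium summed to at most 10.0 CPM in any library. Of these, the fibroblast list was higher in the control sgRNA libraries, at 5.37 and 10.0 CPM, than in the other 4 libraries, at 1.16 to 1.60 CPM, most of it from Pdgfrb (562 and 790 counts), while Col1a2 and Lum had 0 counts in every library and Col3a1 at most 2. From the other lists, Cd3e, Cd8b1, Cd14 and Kdr also had 0 counts throughout, whereas further members were detected. Adgre1 had 64 to 372 counts per library, Pecam1 15 to 139, Itgam 4 to 128 and Cd5 7 to 61. Of the 2 tested T cell markers, Cd5 was higher in Cd4 sgRNA cells than in WT (log2 fold change 2.16, adjusted p = 0.048, edgeR), and Cd28 was not called. Transcripts of the mitochondrial genome took 2.65% and 2.69% of counts in WT, 5.96% and 6.90% in Cd4 sgRNA cells, and 6.63% and 11.5% in control sgRNA cells. The control sgRNA replicates stood further apart than those of the other groups, with a median absolute difference over all tested genes of 0.258 in log2(CPM + 0.25), against 0.0807 between the WT and 0.0834 between the Cd4 sgRNA replicates. The part of the mitochondrial share, of Pdgfrb and of this library difference in the results was not tested, and the control sgRNA libraries are therefore given separately throughout. A difference between 2 groups of 2 cannot reach an exact permutation p below 0.333, so that calls rest on edgeR's model, and in bulk RNA fewer cells that express a gene and less RNA per cell cannot be told apart.

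Promoter windows show what these genes have in common in sequence. RefSeq windows of GRCm38.p6, from 250 bases before to 50 bases after the annotated start, were at hand for 23 of the 32 genes, and 22 of them held at least 1 match to ACGTG or GCGTG, the letters of the HIF core, on either strand. At least 1 match was present in 46.7% of all genes with a window, at least 2 matches in 17 of the 23 genes and 22.9% of all genes, and at least 3 matches in 10 of the 23 and 10.2% of all genes. The exception without a match was Car12, and Fam162a and Wsb1 had the most, with 6 each. Zfp395, Kdm4b, Loxl2, Stc1, Angptl4, Bhlhe40, Bnip3l, Plod2 and Ndrg1 had no window. A palindromic CACGTG counts as 2 overlapping matches, 1 on each strand, and a match is a description of the letters, not evidence of binding. Printed here are 3 genes that were higher in control sgRNA cells (Bnip3, chr7:138909457-138909756, minus strand, 5 matches; Ankrd37, chr8:45999801-46000100, minus strand, 4 matches; Ddit4, chr10:59951721-59952020, minus strand, 2 matches), a gene lost in both TETact groups (P4ha2, chr11:54100674-54100973, plus strand, 4 matches) and a gene past the threshold in no comparison (Wsb1, chr11:79254646-79254945, minus strand, 6 matches in its first window). They run 5′ to 3′ along the gene, with each match on either strand in capitals.
Bnip3: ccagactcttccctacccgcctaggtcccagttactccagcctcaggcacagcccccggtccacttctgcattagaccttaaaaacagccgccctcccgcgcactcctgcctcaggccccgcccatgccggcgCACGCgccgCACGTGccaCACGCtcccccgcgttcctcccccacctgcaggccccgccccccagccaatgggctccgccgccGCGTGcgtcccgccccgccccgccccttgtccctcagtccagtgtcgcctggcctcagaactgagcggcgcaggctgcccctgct
Ankrd37: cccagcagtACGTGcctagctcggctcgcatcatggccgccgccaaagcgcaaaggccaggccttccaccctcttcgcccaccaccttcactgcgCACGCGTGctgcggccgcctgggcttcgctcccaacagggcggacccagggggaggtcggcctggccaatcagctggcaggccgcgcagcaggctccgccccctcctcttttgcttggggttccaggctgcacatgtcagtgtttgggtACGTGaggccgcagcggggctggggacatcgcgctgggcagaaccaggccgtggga
Ddit4: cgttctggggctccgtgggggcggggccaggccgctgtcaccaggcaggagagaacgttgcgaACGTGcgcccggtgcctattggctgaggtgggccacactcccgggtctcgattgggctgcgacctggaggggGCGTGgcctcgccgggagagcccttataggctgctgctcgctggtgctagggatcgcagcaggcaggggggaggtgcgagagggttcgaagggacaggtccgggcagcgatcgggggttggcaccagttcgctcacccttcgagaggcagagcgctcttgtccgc
P4ha2: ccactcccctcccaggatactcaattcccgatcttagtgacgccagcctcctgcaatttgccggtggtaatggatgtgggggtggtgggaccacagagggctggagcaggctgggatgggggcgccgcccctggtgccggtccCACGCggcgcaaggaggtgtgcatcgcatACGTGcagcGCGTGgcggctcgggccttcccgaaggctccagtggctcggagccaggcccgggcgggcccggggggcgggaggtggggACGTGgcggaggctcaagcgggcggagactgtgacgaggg
Wsb1: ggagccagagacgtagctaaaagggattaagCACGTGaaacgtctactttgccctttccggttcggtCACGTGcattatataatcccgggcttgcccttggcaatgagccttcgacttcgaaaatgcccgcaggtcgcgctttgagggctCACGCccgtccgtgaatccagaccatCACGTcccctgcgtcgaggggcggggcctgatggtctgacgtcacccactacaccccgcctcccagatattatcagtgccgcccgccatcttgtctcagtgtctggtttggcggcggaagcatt
Matches were thus present in genes that rose, in a gene that was lost and in a gene that passed no threshold.

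Of the 32 genes, 27 passed the filter on low counts and were tested among 12418 genes. Relative to WT, control sgRNA cells had 18 of the 27 higher and 3 lower (Cited2, Mif and P4ha2) at an adjusted p under 0.05 in edgeR's quasi-likelihood test, where 14.5% of all tested genes were higher and 13.5% lower. The median log2 fold change of the 27 genes was 0.81, and that of all tested genes was -0.0012. Relative to the same WT libraries, Cd4 sgRNA cells had 2 of the 27 higher (Bhlhe40 and Plod1) and 5 lower (Cited2, Mif, P4ha2, Plin2 and Higd1a), where 9.85% of all tested genes were higher and 10.7% lower, and the median log2 fold change was -0.21. Between the TETact groups, Stc1 and Zfp395 were the 2 of the 27 lower in Cd4 sgRNA cells and 0 were higher, where 0.0483% of all tested genes were lower and 0.0242% higher, and the median log2 fold change was -1.09. At an unadjusted p under 0.05 in the same comparison, 24 of the 27 were lower and 1 (Angptl4) was higher in edgeR, where 13.6% and 11.3% of all tested genes were, and DESeq2 called 24 lower and 0 higher after adjustment, where it called 7.06% of all tested genes lower and 4.26% higher. Libraries of the 2 groups did not overlap, whatever the test, in 20 genes higher and 5 lower in control sgRNA cells than in WT (33.3% and 33.8% of all tested genes), in 6 higher and 14 lower in Cd4 sgRNA cells than in WT (40.4% and 39.4%), and in 1 higher and 24 lower in Cd4 sgRNA cells than in control sgRNA cells (29.5% and 30.2%). The first pair of comparisons shares the WT libraries and the last shares libraries with each of them, so they are not independent. Angptl4, Car12, Fam162a and Wsb1 passed the threshold in none of the 3 comparisons. P4ha2 passed the low-count filter only through the WT libraries, so that its place among the lower genes was set by that filter.

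The counts of calls depended on single libraries, over all tested genes as well as among the hypoxia targets. Against WT, control sgRNA cells had 21 genes higher and 5 lower without control sgRNA replicate 1 (33% and 31.2% of all tested genes), and 19 and 6 with replicate 2 left out instead (30.4% and 29.5%). The same counts were 1 and 0 without WT replicate 1 (0.495% and 0.416% of all), 3 and 1 without WT replicate 2 (1.75% and 1.32%), and 11 and 2 without Cd4 sgRNA replicate 1 (6.41% and 5.64%) or replicate 2 (6.38% and 5.62%), with medians between 0.62 and 1.07 over these fits. For Cd4 sgRNA cells against WT, leaving out either control sgRNA replicate gave 14 genes lower, and 6 (replicate 1) or 5 (replicate 2) higher, where 26.9% and 29% of all tested genes were lower and 32.5% and 30.7% higher. Leaving out any WT or Cd4 sgRNA library left 0 higher and 1 or 2 lower, where 0.369% to 0.921% of all tested genes were higher and 0.267% to 0.619% lower. Cited2 was called lower in all 6 of these fits, and Mif in those without a control sgRNA library and in that without Cd4 sgRNA replicate 1. Between the TETact groups, 25 genes were lower when control sgRNA replicate 1 was left out and 24 when replicate 2 was (30.9% and 12.8% of all tested genes), and 0 in each fit without a WT or Cd4 sgRNA library, where 0 of all tested genes were lower and 1 was higher. Each of these fits tested 27 or 28 of the 32 genes, and with a group reduced to 1 library, its spread is taken from the other groups.

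**Figure D1:**
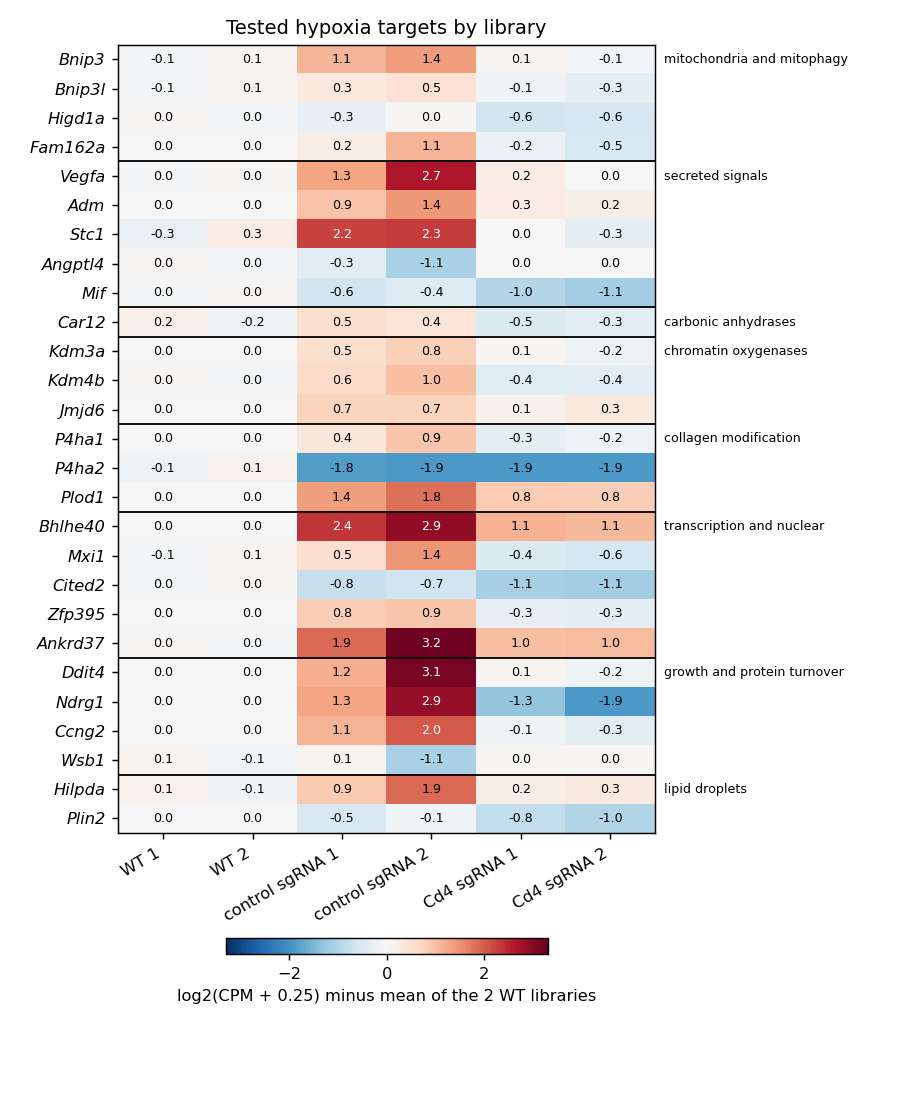
Heat map of the 27 tested hypoxia targets (rows, by role) in the 6 libraries (columns), as log2(CPM + 0.25) minus the mean of the 2 WT libraries. Most rows are red in both control sgRNA libraries and deepest in replicate 2, while P4ha2, which is at or near 0 counts in both TETact groups, is blue in all 4 TETact libraries.

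Among genes of mitochondria and mitophagy, Bnip3 and Bnip3l rose in control sgRNA cells, Higd1a fell in Cd4 sgRNA cells, and Fam162a and Ak4 made no call. Bnip3, a mitophagy receptor of the outer mitochondrial membrane (chromosome 7, 138890836 to 138909506, GRCm38), was at 133 and 144 CPM in WT, 301 and 359.8 CPM in control sgRNA cells, and 149 and 131 CPM in Cd4 sgRNA cells. Both control sgRNA libraries were above the other 4, and WT and Cd4 sgRNA values overlapped. Its log2 fold change against WT was 1.25 (standard error (SE) 0.12, adjusted p = 0.0025, edgeR) in control sgRNA cells and 0.010 (SE 0.12, adjusted p = 0.96) in Cd4 sgRNA cells. Its paralogue Bnip3l, a mitophagy receptor needed in red cell maturation, was at 157 and 172 CPM in WT, 208 and 228 CPM in control sgRNA cells, and 151 and 134 CPM in Cd4 sgRNA cells. The rise of Bnip3l was smaller, at a log2 fold change of 0.40 (SE 0.10, adjusted p = 0.035, edgeR), and RefSeq lists 1 Bnip3l pseudogene, so that its counts are uncertain to that extent. Higd1a, a small protein of the inner mitochondrial membrane, was at 63.0 and 60.4 CPM in WT, 51.5 and 63.1 CPM in control sgRNA cells, and 40.3 and 42.0 CPM in Cd4 sgRNA cells. Both Cd4 sgRNA libraries and control sgRNA replicate 1 lay below both WT values, and the log2 fold change in Cd4 sgRNA cells was -0.58 (SE 0.12, adjusted p = 0.023, edgeR). Fam162a, a mitochondrial protein linked to apoptosis under hypoxia, ranged from 79.1 to 246.8 CPM, and its control sgRNA log2 fold change of 0.73 (adjusted p = 0.10, edgeR) was 1.14 without control sgRNA replicate 1 and 0.21 without replicate 2. Ak4, a mitochondrial adenylate kinase, had 0 counts in every library.

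Of the secreted signals, Stc1, Vegfa and Adm rose in control sgRNA cells and Mif fell in both TETact groups. Stc1, a glycoprotein hormone (chromosome 14, 69029289 to 69041401), was at 1.83 and 2.71 CPM in WT, 11.4 and 12.1 CPM in control sgRNA cells, and 2.20 and 1.74 CPM in Cd4 sgRNA cells. The control sgRNA replicates lay close together and several fold above all other libraries. Stc1 was 5.46-fold higher than WT in control sgRNA cells (log2 fold change 2.45, SE 0.21, adjusted p = 0.0018, edgeR) and 6.04-fold lower in Cd4 sgRNA cells than there (log2 difference -2.59, SE 0.21, adjusted p = 0.020). Vegfa, the main growth factor of blood vessels (chromosome 17, 46016993 to 46032377), was at 6.28 and 6.68 CPM in WT, 16.2 and 42.5 CPM in control sgRNA cells, and 7.66 and 6.42 CPM in Cd4 sgRNA cells. The control sgRNA replicates differed 2.62-fold from each other, and both were above the other 4 libraries. Its log2 fold change against WT was 2.18 (SE 0.47, adjusted p = 0.021, edgeR), and 1.34 without control sgRNA replicate 2. With voomLmFit this call was lost (adjusted p = 0.063). Adm, which encodes the vasodilator adrenomedullin, was at 109 and 106 CPM in WT, 208 and 292 CPM in control sgRNA cells, and 130 and 123 CPM in Cd4 sgRNA cells, a log2 fold change of 1.21 (SE 0.16, adjusted p = 0.0054, edgeR) in control sgRNA cells. Mif, a cytokine that restrains macrophage migration and the most abundant of the 32 genes, was at 693 and 737 CPM in WT, 458 and 532 CPM in control sgRNA cells, and 363 and 323 CPM in Cd4 sgRNA cells. All 4 TETact libraries were below both WT libraries, with log2 fold changes of -0.53 in control sgRNA cells (SE 0.11, adjusted p = 0.020, edgeR) and -1.06 in Cd4 sgRNA cells (SE 0.11, adjusted p = 0.0042). RefSeq lists 3 Mif pseudogenes, which may share its reads. Angptl4, an inhibitor of lipoprotein lipase, ranged from 5.66 CPM in control sgRNA replicate 2 to 12.5 CPM in WT, and was the single tested signal with both control sgRNA libraries below the other 4 libraries. Stc2, the paralogue of Stc1, had 1 count in all 6 libraries together.

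The carbonic anhydrases gave no call. Car12, an enzyme of the cell surface that hydrates carbon dioxide, was at 18.7 and 14.5 CPM in WT, 24.01 and 22.1 CPM in control sgRNA cells, and 11.7 and 12.99 CPM in Cd4 sgRNA cells. The 3 groups did not overlap, but neither difference from WT passed the threshold (adjusted p = 0.064 for control sgRNA and 0.094 for Cd4 sgRNA cells, edgeR). Car9, its paralogue and a widely used marker of hypoxia in tumours, did not pass the low-count filter. It had 1 and 0 counts in WT, 3 and 1 in Cd4 sgRNA cells, 5 in control sgRNA replicate 1 and 114 in control sgRNA replicate 2, which corresponds to 1.41 CPM there and at most 0.0916 CPM elsewhere. Car9 was thus above the floor of 3 counts in the control sgRNA libraries alone, but these were the deepest. Scaled for depth, control sgRNA replicate 1 was at 0.0450 CPM, below Cd4 sgRNA replicate 1 at 0.0916 CPM, and only control sgRNA replicate 2 stood out. The span of Car9 overlaps those of Arhgef39 and Tpm2.

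All 3 chromatin oxygenases rose in control sgRNA cells, by similar amounts. Kdm3a, a demethylase of histone H3 lysine 9, was at 22.2 and 22.1 CPM in WT, 32.2 and 38.7 CPM in control sgRNA cells, and 23.2 and 19.8 CPM in Cd4 sgRNA cells. Kdm4b, another demethylase of methylated histone H3 lysine 9, was at 61.8 and 59.0 CPM in WT, 93.2 and 119 CPM in control sgRNA cells, and 45.5 and 46.3 CPM in Cd4 sgRNA cells. Jmjd6, an oxygenase that hydroxylates lysine residues of splicing factors and whose span overlaps that of Mettl23, was at 70.9 and 68.6 CPM in WT, 116.1 and 115.6 CPM in control sgRNA cells, and 77.1 and 87.9 CPM in Cd4 sgRNA cells. In each of them both control sgRNA libraries exceeded the other 4. The log2 fold changes against WT in control sgRNA cells were 0.68 for Kdm3a (adjusted p = 0.016, edgeR), 0.81 for Kdm4b (adjusted p = 0.0089) and 0.73 for Jmjd6 (adjusted p = 0.0046), and in Cd4 sgRNA cells -0.045, -0.40 and 0.24, where none passed the threshold.

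Among the enzymes of collagen modification, Plod1 rose in both TETact groups, P4ha1 rose in control sgRNA cells, and P4ha2 was lost in both. Plod1, a lysyl hydroxylase of procollagen (chromosome 4, 147909753 to 147936776), was at 4.15 and 4.11 CPM in WT, 11.1 and 15.2 CPM in control sgRNA cells, and 7.57 and 7.41 CPM in Cd4 sgRNA cells. The 3 groups were thus separate, with Cd4 sgRNA cells between the others, and the log2 fold changes against WT were 1.66 (SE 0.20, adjusted p = 0.0041, edgeR) in control sgRNA and 0.86 (SE 0.22, adjusted p = 0.0396) in Cd4 sgRNA cells. The latter call was lost with voomLmFit (adjusted p = 0.084). P4ha1, a catalytic subunit of the prolyl hydroxylase of collagen, was at 174 and 176 CPM in WT, 225 and 330.2 CPM in control sgRNA cells, and 143 and 156 CPM in Cd4 sgRNA cells. Its log2 fold change in control sgRNA cells was 0.67 (SE 0.18, adjusted p = 0.0398, edgeR), and 0.36 without control sgRNA replicate 2. P4ha2, the alternative catalytic subunit (chromosome 11, 54100924 to 54131668), had 28 and 16 counts in WT, 1 and 0 in control sgRNA cells, and 0 and 0 in Cd4 sgRNA cells. The WT level, 0.603 and 0.747 CPM, was low but above the floor of 3 counts, which corresponded to 0.0270 to 0.140 CPM. P4ha2 was at least 16.6-fold lower in Cd4 sgRNA cells than in WT, with 3 counts over the group as the floor. Against control sgRNA cells the WT level was 124 times as high, a ratio that rests on 1 count over that group. As P4ha2 passed the low-count filter only through WT, the direction of its calls and of these ratios was set by that filter. Its p-values and intervals are therefore not given. For the same reason no contrast between the paralogues P4ha1 and P4ha2 is drawn. The median log2 fold change of the 27 genes in control sgRNA cells against WT, 0.81, was 0.84 with P4ha2 left out. Plod2, the paralogue of Plod1, had 1 count in all libraries together, and Loxl2, a lysyl oxidase that crosslinks collagen, had at most 6 counts in a library.

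Of the nuclear factors, Bhlhe40, Ankrd37, Zfp395 and Mxi1 rose in control sgRNA cells and Cited2 fell in both TETact groups. Bhlhe40, a transcriptional repressor that acts in the circadian clock (chromosome 6, 108660629 to 108666925), was at 14.9 and 14.6 CPM in WT, 76.2 and 114 CPM in control sgRNA cells, and 33.0 and 31.2 CPM in Cd4 sgRNA cells. The 3 groups were separate, and Bhlhe40 was 6.45-fold higher in control sgRNA cells (log2 fold change 2.69, SE 0.21, adjusted p = 0.0014, edgeR) and 2.18-fold higher in Cd4 sgRNA cells (log2 fold change 1.12, SE 0.20, adjusted p = 0.018) than in WT. Its control sgRNA call was held in all 17 alternatives. Ankrd37, an ankyrin repeat protein (chromosome 8, 45996908 to 46000414, overlapping Ufsp2), was at 9.92 and 9.29 CPM in WT, 36.0 and 91.4 CPM in control sgRNA cells, and 19.4 and 20.1 CPM in Cd4 sgRNA cells. Its log2 fold change was 2.72 (SE 0.44, adjusted p = 0.0091, edgeR) in control sgRNA cells, or 1.90 without control sgRNA replicate 2, and 1.03 (SE 0.45, adjusted p = 0.15) in Cd4 sgRNA cells. Zfp395, a zinc finger protein (chromosome 14, 65358676 to 65398930), was at 23.7 and 23.3 CPM in WT, 41.5 and 44.8 CPM in control sgRNA cells, and 19.6 and 19.1 CPM in Cd4 sgRNA cells. The replicates of each group lay close together, and Zfp395 was 1.83-fold higher in control sgRNA cells than in WT (adjusted p = 0.0029, edgeR) and 2.23-fold lower in Cd4 sgRNA cells than in these (log2 fold change -1.16, SE 0.095, adjusted p = 0.020). Mxi1, an antagonist of Myc, was at 41.2 and 45.4 CPM in WT, 63.1 and 118 CPM in control sgRNA cells, and 31.8 and 28.8 CPM in Cd4 sgRNA cells, with a log2 fold change of 1.07 (SE 0.28, adjusted p = 0.037, edgeR) in control sgRNA cells. This value was 0.55 without control sgRNA replicate 2, and the call was lost with voomLmFit (adjusted p = 0.055). Cited2, which competes with HIF-alpha for the coactivators p300 and CBP (chromosome 10, 17723228 to 17725674), went the other way, at 199.9 and 208 CPM in WT, 121 and 129 CPM in control sgRNA cells, and 96.04 and 91.9 CPM in Cd4 sgRNA cells. Its log2 fold changes were -0.71 (SE 0.085, adjusted p = 0.0038, edgeR) and -1.12 (SE 0.086, adjusted p = 0.0016), and the latter was past the threshold in all 17 alternatives.

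Of the 4 genes of growth and protein turnover, Ddit4, Ndrg1 and Ccng2 rose in control sgRNA cells and differed between its replicates. Ddit4, an inhibitor of mTORC1 signalling (chromosome 10, 59949675 to 59951770), was at 47.0 and 47.2 CPM in WT, 107 and 411 CPM in control sgRNA cells, and 50.3 and 41.8 CPM in Cd4 sgRNA cells. Both control sgRNA values exceeded all others, and they differed 3.83-fold from each other, the widest gap among the 27 apart from P4ha2. The log2 fold change against WT was 2.46 (SE 0.58, adjusted p = 0.027, edgeR), and 1.19 without control sgRNA replicate 2. Ndrg1, a protein of cell differentiation that is widely induced by hypoxia (chromosome 15, 66929318 to 66969641), was at 18.3 and 18.6 CPM in WT, 46.1 and 139 CPM in control sgRNA cells, and 7.26 and 4.79 CPM in Cd4 sgRNA cells. WT thus lay between the TETact groups, with a log2 fold change of 2.33 (SE 0.51, adjusted p = 0.022, edgeR) in control sgRNA cells and -1.63 (SE 0.57, adjusted p = 0.092) in Cd4 sgRNA cells. Without control sgRNA replicate 2 the former was 1.33. Ccng2, a cyclin that goes with cell cycle arrest, was at 73.0 and 75.7 CPM in WT, 163 and 305 CPM in control sgRNA cells, and 67.3 and 58.8 CPM in Cd4 sgRNA cells, which gave a log2 fold change of 1.65 (SE 0.28, adjusted p = 0.010, edgeR) in control sgRNA cells. Wsb1, a substrate receptor of a ubiquitin ligase, was at 49.9 to 56.4 CPM in 5 libraries and at 25.2 CPM in control sgRNA replicate 2.

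Of the lipid droplet genes, Hilpda rose in control sgRNA cells and Plin2 fell in Cd4 sgRNA cells, both against WT. Hilpda, an inhibitor of the triglyceride lipase ATGL, was at 8.67 and 7.29 CPM in WT, 14.6 and 29.9 CPM in control sgRNA cells, and 9.37 and 9.85 CPM in Cd4 sgRNA cells. Plin2, a coat protein of the droplets, was at 11.4 and 11.6 CPM in WT, 7.95 and 10.4 CPM in control sgRNA cells, and 6.41 and 5.602 CPM in Cd4 sgRNA cells. Hilpda rose in control sgRNA cells (log2 fold change 1.45, SE 0.35, adjusted p = 0.029, edgeR), with a value of 0.84 without control sgRNA replicate 2, and lost this call with voomLmFit (adjusted p = 0.074). Plin2 fell in Cd4 sgRNA cells (log2 fold change -0.94, SE 0.19, adjusted p = 0.021, edgeR), where Hilpda gave 0.25 (adjusted p = 0.66).

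**Figure D2:**
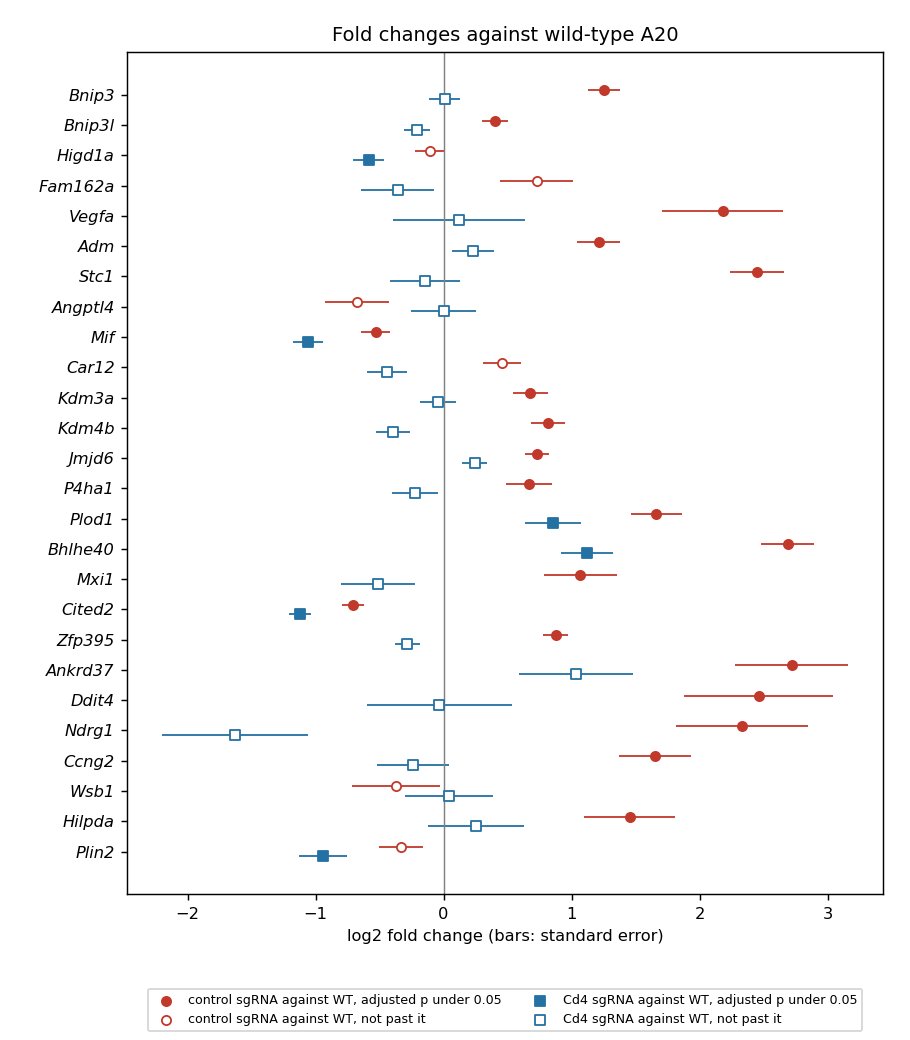
Log2 fold change against WT for 26 tested hypoxia targets (P4ha2, at or near 0 counts in TETact cells, is left out), with standard errors as bars, circles for control sgRNA and squares for Cd4 sgRNA cells, filled where the adjusted p of edgeR was under 0.05. Of the filled circles 18 lie to the right of 0, while filled squares lie to the right for Bhlhe40 and Plod1 and to the left for Cited2, Mif, Plin2 and Higd1a.

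Taken one at a time, the control sgRNA libraries differed in how far these genes departed from WT. The median of the 27 genes, as log2(CPM + 0.25) minus the WT mean, was 0.62 in control sgRNA replicate 1 and 0.98 in replicate 2, against -0.13 and -0.29 in the Cd4 sgRNA libraries, while the median of all tested genes was between -0.017 and 0.0074 in these 4 libraries. Both control sgRNA libraries were above the other 4 libraries in 20 of the 27 genes, as in 15.8% of all tested genes. In 22 of the 27 the value was higher in replicate 2 than in replicate 1. The share of all tested genes for this was not taken, and their median was 0.0074 in replicate 1 and -0.017 in replicate 2. The difference exceeded 2-fold in favour of replicate 2 for Ddit4 (3.83-fold), Ndrg1 (3.02-fold), Vegfa (2.62-fold), Ankrd37 (2.54-fold) and Hilpda (2.05-fold), and in favour of replicate 1 for Wsb1 (2.24-fold), whereas 3.70% of all tested genes were over 2-fold apart. The median absolute log2 difference between the control sgRNA libraries was 0.44 for the 27 genes and 0.26 for all tested genes. Between the WT libraries it was 0.062 and 0.081, and between the Cd4 sgRNA libraries 0.14 and 0.083. Stc1, Zfp395, Jmjd6, Bnip3l and Car12 were among those whose control sgRNA replicates were close, with replicate 2 between 0.918-fold (Car12) and 1.10-fold of replicate 1. As 1 library each, these differences carry no test.

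**Figure D3:**
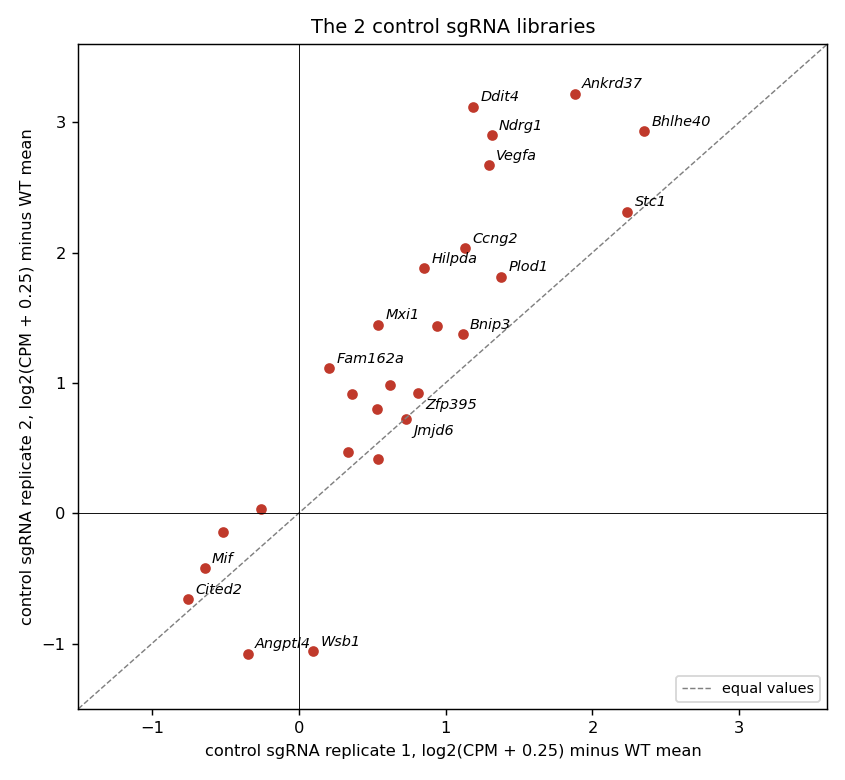
Control sgRNA replicate 1 (x axis) against replicate 2 (y axis) for 26 tested hypoxia targets, each as log2(CPM + 0.25) minus the WT mean, with the dashed line at equal values and P4ha2 left out. Ddit4, Ndrg1, Vegfa and Ankrd37 lie far above the line, Stc1 and Zfp395 near it, and Wsb1 below it.

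Set directly against control sgRNA cells, Cd4 sgRNA cells had lower fitted values in 25 of the 27 genes, and Angptl4 and Wsb1 had higher ones. The median log2 fold change of all tested genes in this comparison was -0.0078. Only Stc1 and Zfp395 passed the threshold, and both calls were lost without any of the WT or Cd4 sgRNA libraries, with adjusted p from 0.12 to 0.64 in edgeR. Bnip3, with a log2 fold change of -1.24 (SE 0.12, adjusted p = 0.051, edgeR), and Kdm4b, with -1.21 (SE 0.13, adjusted p = 0.058), were just outside. The largest fitted difference was that of Ndrg1, -3.96 (SE 0.57, adjusted p = 0.10, edgeR), which was -2.97 without control sgRNA replicate 2. The median of -1.09 became -0.72 without control sgRNA replicate 2 and -1.21 without replicate 1. The Cd4 sgRNA and WT values of Bnip3, Vegfa, Ddit4, Stc1, Kdm3a, Angptl4 and Wsb1 overlapped.

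Expressed per kilobase of exon (RPKM), which allows levels of different genes to be set side by side, the tested genes other than P4ha2 ranged in WT from 0.606 RPKM for Stc1 to 1289.8 RPKM for Mif as group means. Fam162a (179.8 RPKM), Cited2 (104 RPKM), Bnip3 (79.1 RPKM) and Adm (78.2 RPKM) followed Mif. Bnip3 and Adm did not differ beyond the spread of their replicates in this order. In control sgRNA cells the order below Mif was Fam162a (298 RPKM), Bnip3 (188 RPKM), Adm (181 RPKM) and Ddit4 (154 RPKM), where the ranges of Bnip3, Adm and Ddit4 overlapped, as did that of Fam162a with those of Adm and Ddit4. For Cd4 sgRNA cells it was Fam162a (140.3 RPKM), Adm (91.7 RPKM), Bnip3 (79.6 RPKM) and Jmjd6 (49.5 RPKM). Vegfa, at 1.55 RPKM in WT and 7.04 RPKM in control sgRNA cells, remained among the low genes of the group.

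**Figure D4:**
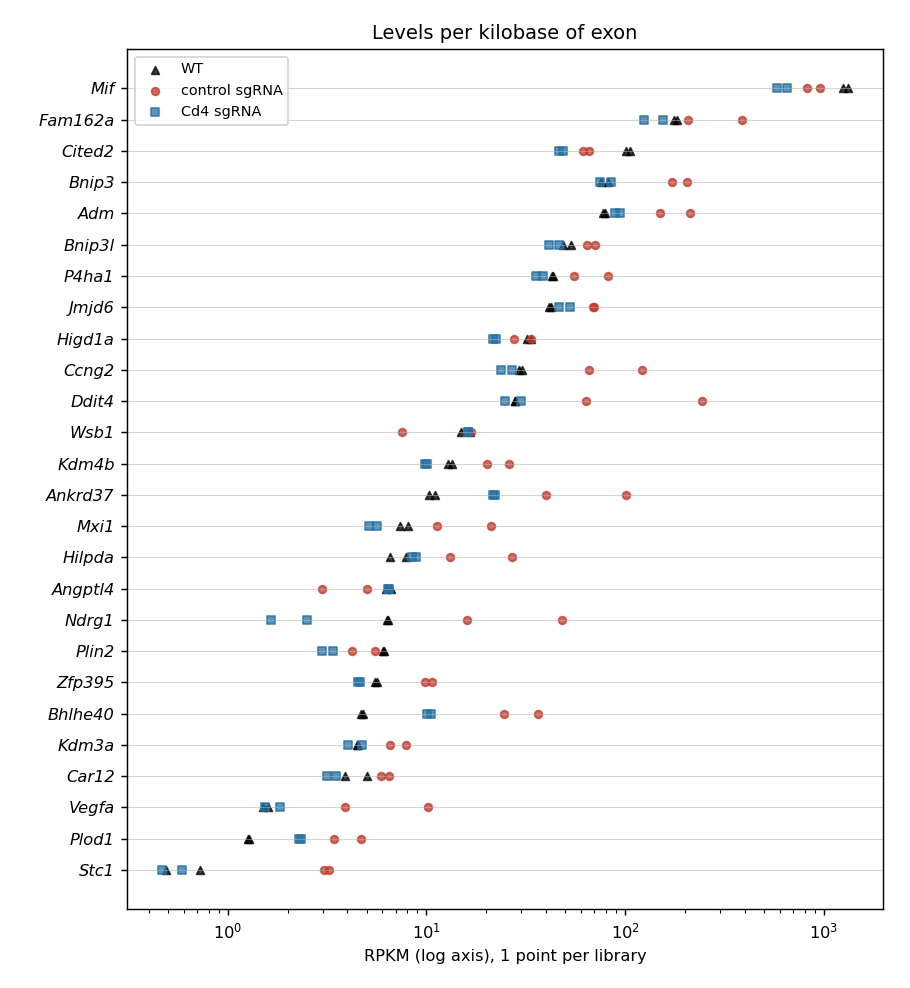
RPKM of 26 tested hypoxia targets (rows, ordered by WT level, P4ha2 left out) on a log axis, 1 point per library, with triangles for WT, circles for control sgRNA and squares for Cd4 sgRNA cells. Control sgRNA circles lie to the right of the other symbols in 20 rows, and the 2 circles are widely spaced for Ddit4, Ndrg1, Vegfa and Ankrd37.

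Of 16 genes that sense oxygen or form HIF, 14 were tested, of which 4 (Arnt, Hif3a, Egln1 and Egln3) had risen and 2 (Egln2 and Rbx1) had fallen in control sgRNA cells against WT by edgeR, where 14.5% and 13.5% of all tested genes had, with a median log2 fold change of -0.085. Hif1a, which encodes the main oxygen-labile subunit, was at 174 and 168 CPM in WT, 173 and 157 CPM in control sgRNA cells and 177 and 169.6 CPM in Cd4 sgRNA cells, and Epas1 had at most 0.0467 CPM. Egln1, the prolyl hydroxylase that is itself a HIF target, was at 108 and 113 CPM in WT, 219 and 356 CPM in control sgRNA cells, and 94.0 and 82.1 CPM in Cd4 sgRNA cells. Egln3, another prolyl hydroxylase, was at 0.108 and 0.0934 CPM in WT, 0.882 and 1.93 CPM in control sgRNA cells, and 0.183 and 0.113 CPM in Cd4 sgRNA cells. Egln3 passed the low-count filter only through the control sgRNA libraries. The direction of its calls, and so its place among the 4 risen genes, was set by that filter. Among the 14 in Cd4 sgRNA cells against WT, 2 were higher (Arnt and Hif3a) and 3 lower (Egln2, Elob and Vhl), where 9.85% and 10.7% of all tested genes were. Between the TETact groups 0 passed the threshold. At an unadjusted p under 0.05 in edgeR, 4 were lower and 0 higher there, where 13.6% and 11.3% of all tested genes were. Egln3 was among these 4, again in the direction set by the filter. HIF-alpha is regulated mainly as a protein, which these data do not measure.

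Of the 22 glycolytic genes, all were tested, with a median log2 fold change of 0.43 in control sgRNA cells against WT. There 11 were higher and 0 lower by edgeR, where 14.5% and 13.5% of all tested genes were. The smallest p-values among the 11 were those of Slc2a1, Slc16a3, Pfkl, Hk2 and Pfkm. At an unadjusted p under 0.05, 13 were higher and 1 lower, where 21.8% and 20.7% of all tested genes were. Cd4 sgRNA cells against WT had 0 higher and 5 lower (Pgk1, Ldha, Eno1, Pkm and Aldoc), where 9.85% and 10.7% of all tested genes were. Slc2a1 and Slc16a3 were the 2 lower when compared with control sgRNA cells, where 0.0483% of all tested genes were lower. Slc2a1, a glucose transporter, was at 118 and 125 CPM in WT, 276 and 293 CPM in control sgRNA cells, and 111 and 108 CPM in Cd4 sgRNA cells. Like Stc1 and Zfp395, its control sgRNA replicates lay close together. The integrated stress response shares Ddit4 and Vegfa as targets. Of 12 of its genes, 1 was up and 6 were down in control sgRNA cells against WT by edgeR (14.5% and 13.5% of all tested genes). In Cd4 sgRNA cells against WT, 1 was up and 7 were down (9.85% and 10.7%), and the medians were -0.61 and -0.69. Between the TETact groups 0 of the 12 passed the threshold. There 2 were higher and 1 lower at an unadjusted p under 0.05 in edgeR (11.3% and 13.6% of all tested genes).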

How the data were processed

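RNA was extracted from the 6 A20 cultures and sequenced from TruSeq RNA libraries. Paired-end reads were aligned by the authors to mm10 (GRCm38) with Rsubread, and they deposited raw counts per Entrez gene from featureCounts with its inbuilt RefSeq annotation; a strand setting was not given in the sources used here, so reads of overlapping genes may be shared. Besides the overlaps named above, the spans of Bnip3, Adm, Stc1, Bhlhe40, Kdm4b, Plod2, Higd1a, Mxi1, Plin2, Wsb1 and Loxl2 overlap those of other genes. Each file listed 27179 identifiers. A table of the whole series repeats these counts and was not used. Groups and replicate numbers came from the labels.

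Symbols from RefSeq (GRCm38.p6) matched 25275 identifiers. Following the study's filters, identifiers without a symbol or with a duplicated one, mitochondrial genes, rRNA and type other were removed, which left 25227. filterByExpr left 12418 genes. Counts were scaled by TMM and tested with glmQLFit and glmQLFTest of edgeR 4.0.16 (robust, 1 term per group, all 6 libraries, two-sided, R 4.3.3) with Benjamini-Hochberg adjustment over all tested genes at 0.05. This replaced voomLmFit, the study's test, which was run with limma 3.58.1 as an alternative, as was DESeq2 1.42.0. CPM used TMM-scaled library sizes and RPKM the exon lengths in the deposited files. Standard errors are the log2 fold change over the root of F. A count of at most 3 was taken as the floor. Floors cover counting error only, as reads carry no molecular identifiers. The scripts were tested on simulated data.

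The genes, their roles and the other lists were chosen with earlier results of these data known, so no set test was run. Values per library are given for each of the 32 genes past the threshold in any comparison or among the 10 smallest p-values of these genes in a comparison. Of other genes, those of the oxygen sensing and glycolytic lists are named where they passed the threshold, at most 5 per list and comparison by p, with Cd4 as the check of labels. Hif1a, Epas1, Rbx1 and the cell type markers were named in addition, after their values were seen. Replicates of a group differed by more than counting noise and were kept as separate samples. The chi-square per degree of freedom was 7.84 in WT, 6.76 in Cd4 sgRNA cells and 221 in control sgRNA cells.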

Additional observations from a re-analysis of the deposited data

How the results depend on the processing

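All 17 alternatives kept the sign of the medians of the tested hypoxia targets, and the results below are those that moved. In control sgRNA cells against WT, a fit of only the 2 groups called 11 genes higher (the calls of P4ha1, Ddit4, Bnip3l, Ndrg1, Vegfa, Mxi1, Hilpda and, among the lower genes, Mif were lost) and voomLmFit 15, and leaving out 1 replicate at a time gave 1 to 21 higher, 0 to 6 lower and a median log2 fold change of 0.62 to 1.07. In Cd4 sgRNA cells against WT, voomLmFit called 1 higher, where 8.23% of all tested genes were. The fit of only the 2 groups called 5 higher and 14 lower, where 31.2% and 30.5% of all tested genes were. Between the TETact groups, DESeq2 called 24 lower (877 of all tested genes), no filter on low counts 5 (of 13), only the 2 groups 0 (of 0) and the replicate block 0 (of 5), and leaving out 1 replicate gave 0 to 25 lower, 0 to 2 higher and a median of -1.21 to -0.72. The cause of these moves was not tested. Replicate numbers did not pair the samples (correlation of deviations 0.041 between WT and Cd4 sgRNA, -0.0099 between WT and control sgRNA, -0.19 between the TETact groups), so the replicate block is given here only. It called 17 higher in control sgRNA cells against WT, where 12.5% of all tested genes were.

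Signs turned for these values. In Cd4 sgRNA cells against WT, Angptl4 (0.0016) was -0.0041 with voomLmFit, -0.000639 with RLE size factors, -0.0037 with the stricter filter, -0.000698 without the annotation filter and -0.0066 with only the 2 groups, and Ddit4 (-0.034) was 0.0067 with library size only. P4ha2 between the TETact groups (-1.74) was 0.52 with voomLmFit. Leaving out 1 replicate, the range crossed 0 for Higd1a (-0.26 to 0.053) and Wsb1 (-0.37, with a range of -1.05 to 0.093) in control sgRNA cells against WT, for Wsb1 between the TETact groups (0.41, with a range of -0.053 to 1.12), and in Cd4 sgRNA cells against WT for Angptl4 (-0.0077 to 0.071), Bnip3 (-0.081 to 0.099), Ddit4 (-0.17 to 0.096), Kdm3a (-0.16 to 0.068), Stc1 (-0.45 to 0.12), Vegfa (-0.0065 to 0.25) and Wsb1 (-0.0043 to 0.15). The legacy quasi-likelihood method of edgeR, chosen after seeing the data, called 3 lower between the TETact groups, where 0.0564% of all tested genes were. With 2 libraries per group, precision was limited by replicates rather than by depth, apart from P4ha2, Car9 and the other genes near the floor.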
